A study of Mus musculus with 2 samples.

Results

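The signaling lymphocytic activation molecule (SLAM) receptors and their adaptors were examined as 10 genes, 8 receptors (*Slamf1*, *Cd48*, *Ly9*, *Cd84*, *Slamf6*, *Slamf7*, *Slamf8* and *Slamf9*) and 2 adaptors (*Sh2d1a* and *Sh2d1b1*), among 20250 protein-coding genes in the table. The family was chosen by the measured difference of *Slamf6*, one of the largest in this contrast, so the differences given here are a description and were put to no test. The 10 genes were represented by 11 protein-coding RefSeq transcripts of 26968, with 2 for *Cd84* and 1 for each other gene, and the quantification of all 11 had the status OK in both libraries. Of the 10 genes, 8 were above 0 in a library, and *Slamf8* and *Sh2d1a* were listed at 0 in both.

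The pre-pro-B library was made from Ebf1 -/- cells of female fetal liver, kept in Il-7, Scf and Flt3l, and the pro-B library from Rag2 -/- cells of male adult bone marrow, kept in Il-7 alone. Both cell cultures were of C57BL/6 background and grew on OP-9 stromal cells. Strand-specific RNA depleted of rRNA was sequenced to about 90 M single-end reads of 97 bases per library. Each stage has 1 library, so no difference has a replicate check, and stage cannot be told apart from genotype, sex, age, tissue or cytokines. Levels are given as FPKM (fragments per kilobase of transcript, scaled to the mapped total of the library). The 95% interval of Cuffdiff's model is added for the transcripts of the family above 0 and for a few other genes. That model estimated dispersion across both libraries, so an interval is not a spread within a library or between replicates. The targeted genes were not at 0 in their own null cells. *Ebf1* was at 64.0 FPKM (interval 2.78 to 149) in the Ebf1 -/- library against 273 (interval 8.50 to 729) in the other. *Rag2* was at 22.9 FPKM (interval 1.75 to 44.3) in the Rag2 -/- library against 34.5 (interval 2.88 to 66.7). The intervals of each overlapped.

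SLAM receptors are immunoglobulin-like surface proteins of blood cells, most of which bind the same receptor on a neighboring cell. CD48 differs, since it is held by a lipid anchor and binds CD244 and, in mice, CD2. The longer receptors carry tyrosine motifs in their tails that recruit the small SH2 adaptors SAP (*Sh2d1a*) and EAT-2 (*Sh2d1b1*), and SAP in turn brings in the kinase Fyn. *Slamf1* (CD150) and *Cd48* are widely used surface markers in the sorting of blood stem and progenitor cells.

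The levels of the 10 genes were set side by side for the 2 libraries. In the pro-B library, *Slamf6*, *Slamf7*, *Cd84*, *Slamf1*, *Slamf9* and *Ly9* stood 2-fold or more above their pre-pro-B level, and *Cd48* and the adaptor *Sh2d1b1* stood 2-fold or more below it, on the log2(FPKM + 1) scale with FPKM added up per gene. Over all 14395 genes above 0 in a library, 8.92% were 2-fold or more higher at the pro-B stage and 14.0% were 2-fold or more lower. Since the family was chosen on this contrast, nothing is read from its 6 and 2 genes beside these shares. The median log2 difference (pro-B minus pre-pro-B) of the 8 genes was 2.20, against -0.05 for all genes. The 8 receptors, which do not include *Cd244a*, together came to 93.7 FPKM at the pre-pro-B stage and 754 FPKM at the pro-B stage.

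*Slamf6* encodes Ly108, a receptor that binds itself and signals through SAP. Its transcript NM_030710 (chromosome 1 of mm9, 173847668 to 173873999, plus strand) was at 1.02 FPKM (interval 0 to 2.47) in the pre-pro-B library. In the pro-B library it was at 347 FPKM (interval 45.8 to 646), 340-fold higher. The log2 difference of 7.43 was at rank 5 from the top among all genes above 0. Of the genes above 0, 26.0% lay below *Slamf6* at the pre-pro-B stage and 99.2% at the pro-B stage.

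*Slamf7* encodes CRACC, a receptor known from natural killer and plasma cells that uses EAT-2. NM_144539 (chromosome 1, 173562534 to 173583168, minus strand) was at 1.98 FPKM (interval 0.00993 to 5.79) in the pre-pro-B library and at 272 FPKM (interval 12.1 to 725) in the pro-B library. The difference was 137-fold, at rank 17 from the top. *Slamf6* and *Slamf7* were thus low at the earlier stage and among the most abundant transcripts at the later one, where 98.9% of genes above 0 lay below *Slamf7*.

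*Slamf1* stayed lower than both. NM_013730 (chromosome 1, 173697263 to 173731315, plus strand) was at 0.0187 FPKM (interval 0 to 0.0882) in the pre-pro-B library and at 5.75 FPKM (interval 0.323 to 17.7) in the pro-B library. At about 90 M reads the lower value is worth roughly 4.53 fragments, so a ratio would rest on very few reads. Its log2 difference with the pseudocount of 1 was 2.73. The intervals of *Slamf6*, *Slamf7* and *Slamf1* did not overlap between the libraries. Of 18877 transcripts above 0, 0.959% had separate intervals with pro-B higher, and 2.06% had them with pro-B lower, where the family had none. As the family was chosen on this contrast, nothing is read from its separate intervals beside these shares.

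*Cd84*, a receptor that binds itself on many leukocytes, came to 4.05 FPKM over both transcripts at the pre-pro-B stage and to 39.6 FPKM at the pro-B stage. The more abundant transcript, NM_013489, went with 3.38 FPKM (interval 0.0365 to 8.38) against 32.7 FPKM (interval 1.17 to 66.5). For NM_001252472 the values were 0.664 FPKM (interval 0 to 2.57) and 6.94 FPKM (interval 0 to 21.5). Both transcripts were higher at the pro-B stage, by 9.66-fold and 10.4-fold, with overlapping intervals. NM_013489 made up 83.6% of the *Cd84* level at the earlier stage and 82.5% at the later one, so that the division between the transcripts was nearly the same.

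*Slamf9*, whose product has a short tail without the tyrosine motif, was low in both libraries, at 0.313 FPKM (interval 0 to 0.897) and, 10.2-fold higher at the pro-B stage, at 3.21 FPKM (interval 0 to 8.04). Its log2 difference of 1.68 became 0.63, under 2-fold, with a pseudocount of 5. *Ly9* (CD229), a receptor of T and B cells, was at 35.2 FPKM (interval 3.29 to 85.9) and, 2.29-fold higher at the pro-B stage, at 80.7 FPKM (interval 3.31 to 197). *Ly9* was the one receptor above 30 FPKM at both stages, and nearly all of its pre-pro-B interval lay within its pro-B interval.

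*Cd48* went the other way. NM_007649 (chromosome 1, 173612186 to 173635388, plus strand) was at 51.1 FPKM (interval 8.93 to 93.4) in the pre-pro-B library and at 5.91 FPKM (interval 0 to 13.5) in the pro-B library. It was 8.65-fold lower at the pro-B stage, with overlapping intervals. Of the genes above 0, 89.9% lay below *Cd48* at the pre-pro-B stage and 46.1% at the pro-B stage.

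The receptors examined could be ordered by FPKM, which is scaled to length. *Cd244a*, counted below with the SLAM genes of chromosome 1, was not among them. At 54.7 FPKM in the pre-pro-B library it stood above *Cd48*, and in the pro-B library it was at 3.53 FPKM. At the pre-pro-B stage the order ran *Cd48*, *Ly9*, *Cd84*, *Slamf7*, *Slamf6*, *Slamf9* and *Slamf1*, and at the pro-B stage it ran *Slamf6*, *Slamf7*, *Ly9*, *Cd84*, *Cd48*, *Slamf1* and *Slamf9*. No receptor had an interval wholly above that of the next in either order, taking the more abundant transcript of *Cd84*. Of 21 pairs of receptors, 8 had separate intervals at the pre-pro-B stage and 4 at the pro-B stage. The pair of *Cd48* and *Slamf6* was separate in both libraries with opposite order, *Cd48* being 50.1-fold above *Slamf6* in the first and *Slamf6* being 58.6-fold above *Cd48* in the second. Most of the separate pairs at the pro-B stage had *Slamf6* as the higher receptor. Because *Slamf6* was the gene by which the family was chosen, nothing is read from this reversal or from the counts of pairs. Of the summed FPKM of the 8 receptors, without *Cd244a*, *Cd48* made up 54.6% at the pre-pro-B stage and 0.784% at the pro-B stage. *Ly9* made up 37.6% and 10.7%. The share of *Slamf6* was 1.09% and 46.0%, and that of *Slamf7* was 2.11% and 36.1%.

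**Figure D1:**
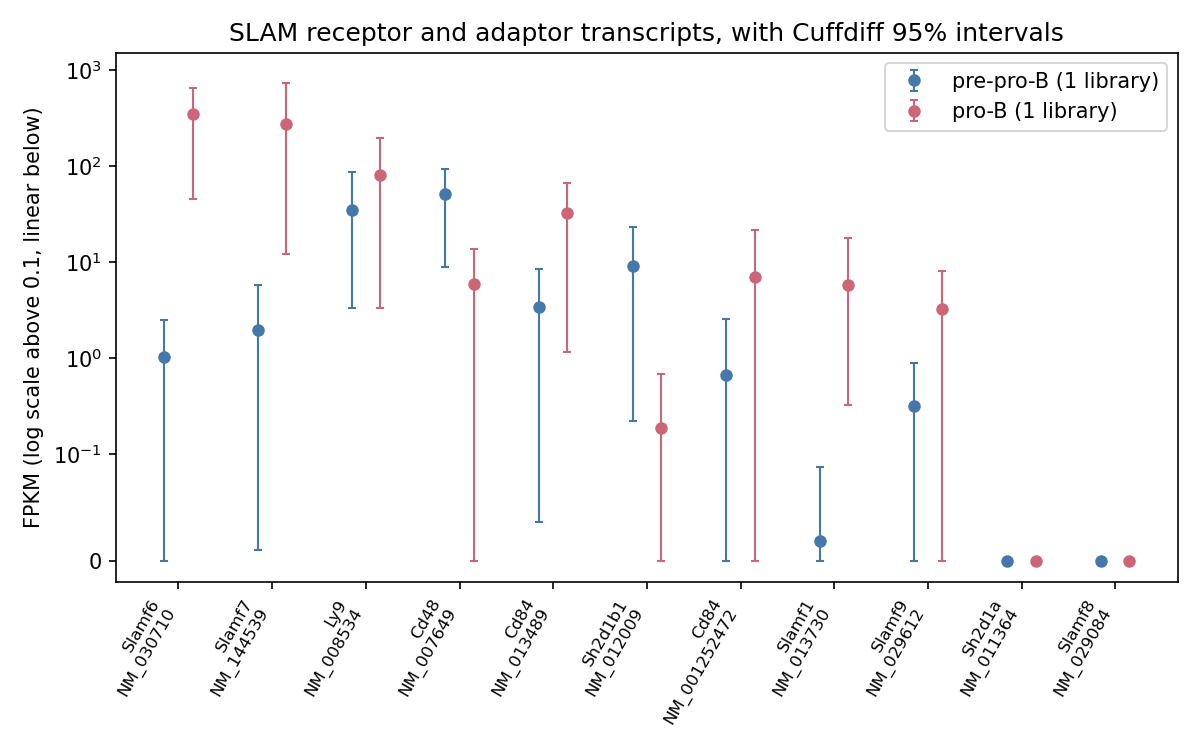
FPKM of each transcript of the SLAM receptors and adaptors in the pre-pro-B library (blue) and the pro-B library (red), with the 95% interval of the Cuffdiff model as bars. The vertical axis is logarithmic above 0.1 FPKM and linear below. The bars of *Slamf6*, *Slamf7* and *Slamf1* are separate, those of the other transcripts above 0 overlap, and *Sh2d1a* and *Slamf8* sit at 0.

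Of the adaptors, *Sh2d1b1* (NM_012009, chromosome 1, 172207455 to 172215793, plus strand) was at 9.15 FPKM (interval 0.221 to 22.9) in the pre-pro-B library and at 0.185 FPKM (interval 0 to 0.689) in the pro-B library. It was 49.4-fold lower at the pro-B stage, and the intervals overlapped between 0.221 and 0.689. *Sh2d1a* (NM_011364, chromosome X, 39855785 to 39875252, plus strand) was listed at 0 in both libraries, as was *Sh2d1b2*, the close relative of *Sh2d1b1*. A listed 0 is not read as absence. For *Sh2d1a*, later RefSeq lists 4 protein-coding transcripts, and only 1 was quantified here. In pro-B cells, where the 8 receptors came to 754 FPKM, the adaptors thus stood at 0.185 FPKM and at a listed 0.

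**Figure D2:**
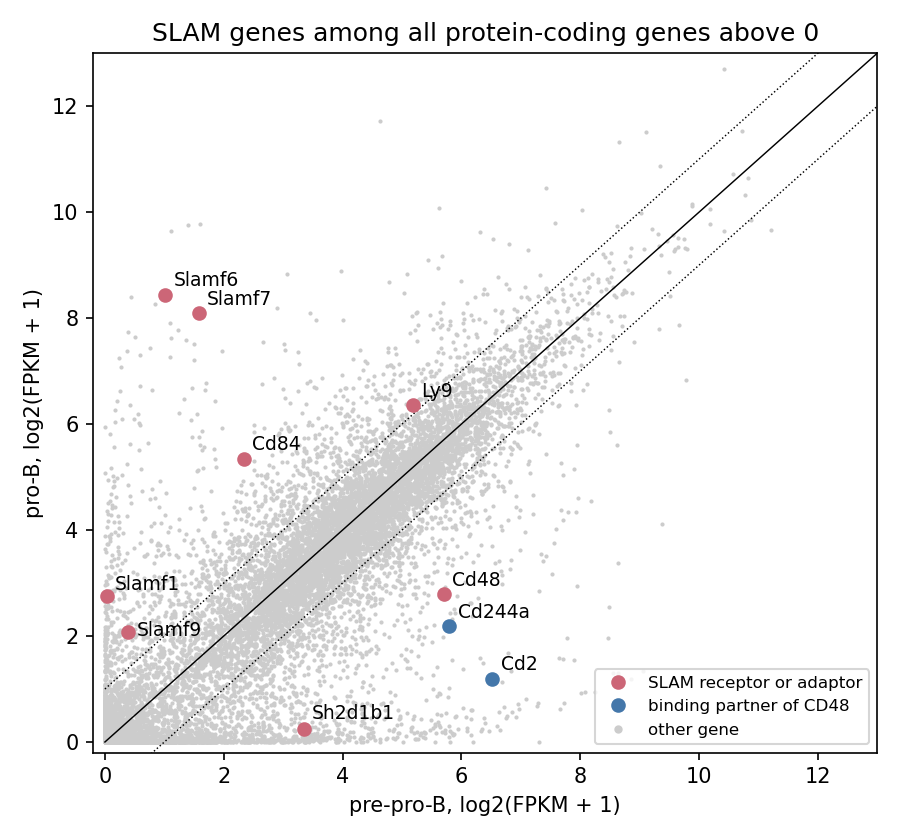
Protein-coding genes above 0 in a library, as log2(FPKM + 1) at the pre-pro-B stage (horizontal) and the pro-B stage (vertical), with equality as a solid line and 2-fold as dotted lines. The SLAM receptors and adaptors examined are red, and *Cd244a* and *Cd2*, the genes of the receptors of CD48, are blue. *Slamf6* and *Slamf7* lie at the upper left, *Ly9* lies just past the upper 2-fold line, and *Cd48*, *Cd244a*, *Cd2* and *Sh2d1b1* lie below the lower one.

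The genes of the binding partners of CD48 were lower along with it. *Cd244a* was at 54.7 FPKM (interval 2.99 to 106) in the pre-pro-B library and, 15.5-fold lower, at 3.53 FPKM (interval 0.0736 to 8.44) in the pro-B library. *Cd2* was at 90.8 FPKM (interval 4.52 to 259) and, 70.6-fold lower, at 1.29 FPKM (interval 0 to 5.25). The gene of CD48 and those of both its receptors were thus lower at the pro-B stage, although the intervals of each overlapped.

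Natural killer, T and myeloid cells also use these genes, so marker lists were read beside them. Among all genes above 0 in a library, 14.0% were 2-fold or more lower at the pro-B stage and 8.92% were 2-fold or more higher. Of 10 natural killer markers, 9 were 2-fold or more lower at the pro-B stage, and the list came to 509 FPKM in the pre-pro-B library and 6.57 FPKM in the pro-B library. *Klrd1* alone was at 353 and 2.89 FPKM and *Klrb1c* at 18.3 and 3.37 FPKM, the defining *Ncr1* was at 1.90 FPKM and a listed 0, and *Gzmb* was listed at 0 in both. Of 10 T cell markers, 3 were lower and 0 higher, and the list came to 119 and 53.1 FPKM. *Lat* was at 9.48 and 19.8 FPKM, which the pseudocount of 1 kept just under 2-fold higher. *Cd28* was at 48.8 and 0.209 FPKM, *Zap70* at 21.8 and 32.9 FPKM, and of the defining genes of the CD3 complex, *Cd3g* was at 36.8 and 0.0351 FPKM, *Cd3d* at 0.533 FPKM and a listed 0, and *Cd3e* at 0.239 and 0.102 FPKM. Of 11 myeloid and dendritic markers, 6 were lower and 0 higher, and the list came to 135 and 7.16 FPKM, with *Siglech* at 54.3 and 0.236 FPKM and *Itgam* at 19.7 and 6.40 FPKM. The granule gene *Mpo* was at 35.7 and 0.122 FPKM, *Adgre1* at 11.7 and 0.111 FPKM and *Lyz2* at 5.39 FPKM and a listed 0, whereas *Elane*, *Ctsg* and *Fcgr1* were listed at 0 in both. The part of such cells in the lower *Cd48*, *Cd244a*, *Cd2* and *Sh2d1b1* was not tested, and in bulk RNA fewer cells of a type and less RNA per cell cannot be told apart.

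The labelled stages were checked in the same way, beside the same shares of all genes above 0 (14.0% lower and 8.92% higher). All 11 B lineage markers were 2-fold or more higher at the pro-B stage, and the list came to 55.6 and 3223 FPKM. Of 8 progenitor markers, 7 were above 0 in a library and 4 were 2-fold or more lower, and the list came to 958 and 3.76 FPKM. Stromal markers, which could come from the OP-9 layer, came to 22.5 and 20.9 FPKM, but without *Pdgfrb*, the 1 marker that was lower (15.9 and 0.377 FPKM), the other 10 came to 6.59 and 20.5 FPKM. Of the 11, 3 were 2-fold or more higher at the pro-B stage, *Fn1* at 1.16 and 5.16 FPKM, *Cxcl12* at 0.618 and 2.92 FPKM and *Col1a2* at 0.707 and 2.82 FPKM, and the median log2 difference of those above 0 was 0.78. *Dcn* and *Postn* were listed at 0 in both. The part of stromal RNA in the SLAM values was not tested.

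The position of the family on chromosome 1 was examined next. *Cd244a*, *Ly9*, *Slamf7*, *Cd48*, *Slamf1*, *Cd84* and *Slamf6* lie in this order in a block of 385 kb (chr1:173489324-173873999 of mm9). *Slamf9* and *Slamf8* lie in a block of 115 kb that starts 531 kb further on, and *Sh2d1b1* ends 1274 kb before *Cd244a*. All 7 genes of the larger block differed 2-fold or more, 5 of them higher and 2 lower at the pro-B stage. Of all genes above 0, 8.92% were higher and 14.0% lower. As the family was chosen on this contrast, nothing is read from this count, alone or beside the neighbors. *Cd48*, which was lower, sits between *Slamf7* and *Slamf1*, which were higher. Within 300 kb of the blocks there were 37 other protein-coding genes, 33 of them above 0 and 20 reaching 1 FPKM in a library. Of the 33, 0 were 2-fold or more higher and 1, *Tstd1* (4.14 and 1.35 FPKM), was 2-fold or more lower. Thus 97.0% of them lay within 2-fold, against 77.1% of all genes above 0. Of the 33, 13 did not reach 1 FPKM in either library, where the pseudocount holds ratios near 0. Of the 20 that did, 19 lay within 2-fold, against 68.7% of all genes that reached 1 FPKM, and these shares were not tested. The log2 differences of the 33 neighbors ran from -1.13 to 0.79 with a median of 0.06.

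Some genes at the edges of the larger block are given with their values. On the side of *Cd244a*, *Itln1* was listed at 0 in both libraries and *Alyref2* was at 18.5 and 14.8 FPKM. On the side of *Slamf6*, *Vangl2*, a planar cell polarity gene, was at 3.55 and 4.89 FPKM. Beyond it *Ncstn*, a subunit of gamma-secretase, was at 29.1 and 20.4 FPKM and *Copa*, a subunit of the vesicle coat, at 101 and 105 FPKM. Of these flanking genes, *Itln1* had no ratio and the others lay within 2-fold.

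**Figure D3:**
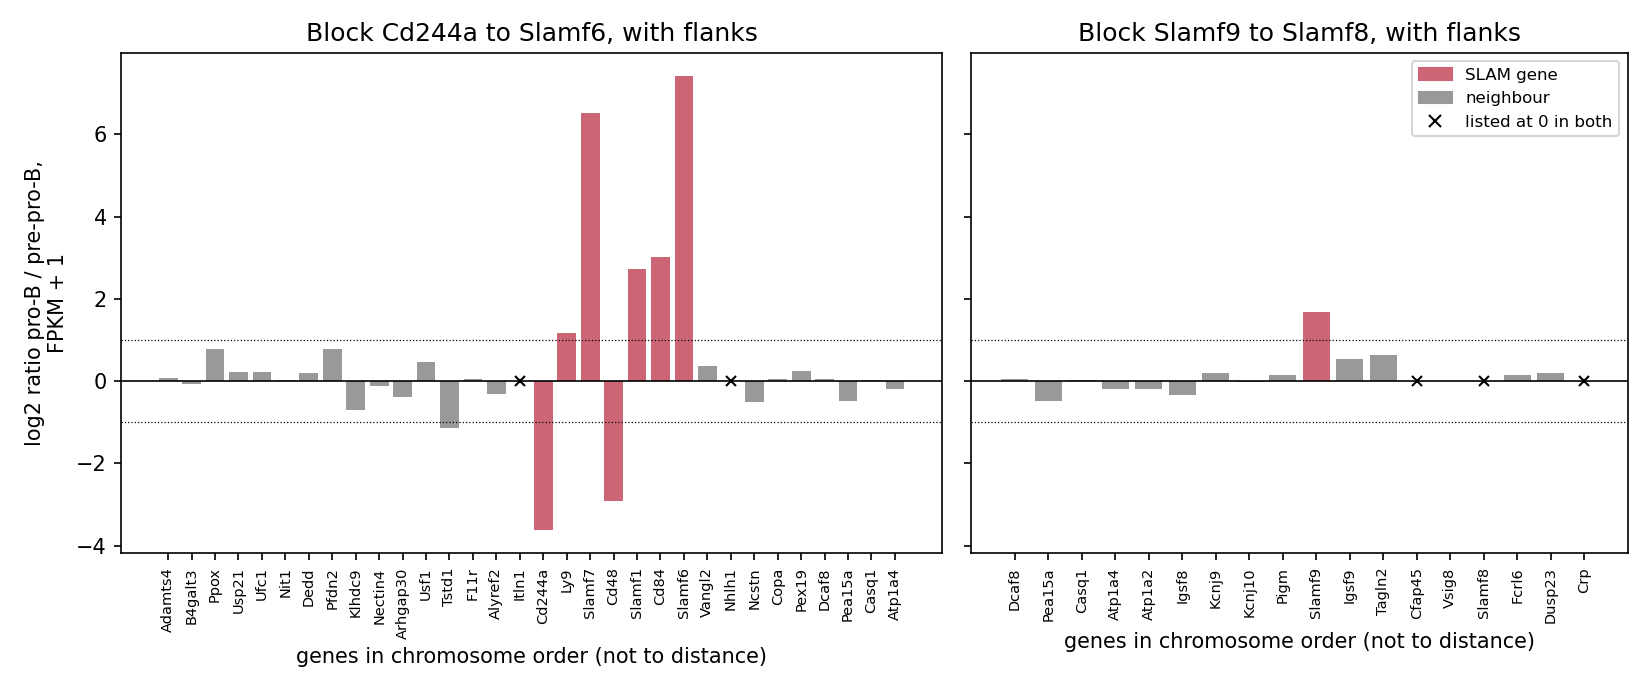
Log2 ratio of the pro-B level over the pre-pro-B level, as FPKM plus 1, for the genes of the SLAM blocks (red) and all protein-coding genes within 300 kb (gray), in chromosome order, with 2-fold as dotted lines and crosses for genes listed at 0 in both libraries. Bars of the SLAM genes reach from -3.62 for *Cd244a* to 7.43 for *Slamf6*, and of the neighbors only *Tstd1*, at -1.13, passes a dotted line.

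The sequence before the start of transcription is shown for 5 members, *Slamf6* with the largest difference, *Cd84*, *Slamf1* and *Slamf9* as further receptors that were higher at the pro-B stage, and *Cd48* as the receptor that was lower. RefSeq promoters were found for 8 of the 10 genes, without *Ly9* and *Sh2d1a*. The 250 bases upstream of each start in RefSeq's GRCm38.p6 annotation were placed on mm9 by their 1 exact match in chromosome 1, and that start can differ from the start of the deposited transcript. The window of *Slamf7* lay inside its deposited transcript and is not shown. Since the pre-pro-B library was made from cells labelled Ebf1 -/-, although *Ebf1* was not at 0 in it, a palindromic Ebf1 motif (TCCC, any 2 bases, then GGGA) was searched on both strands, with the E-boxes CAGCTG and CACCTG bound by proteins such as E2a, the Ets core GGAAGT and the TATA box TATAAA. Capitals mark matches, and all 5 sequences are on the plus strand, at chr1:173847343-173847592 for *Slamf6*, chr1:173769578-173769827 for *Cd84*, chr1:173697013-173697262 for *Slamf1*, chr1:174405241-174405490 for *Slamf9* and chr1:173611873-173612122 for *Cd48*.
Slamf6: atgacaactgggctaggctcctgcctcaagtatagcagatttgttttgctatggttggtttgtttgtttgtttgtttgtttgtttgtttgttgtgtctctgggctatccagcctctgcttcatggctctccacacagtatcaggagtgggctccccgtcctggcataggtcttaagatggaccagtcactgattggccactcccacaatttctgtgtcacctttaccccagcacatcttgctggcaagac
Cd84: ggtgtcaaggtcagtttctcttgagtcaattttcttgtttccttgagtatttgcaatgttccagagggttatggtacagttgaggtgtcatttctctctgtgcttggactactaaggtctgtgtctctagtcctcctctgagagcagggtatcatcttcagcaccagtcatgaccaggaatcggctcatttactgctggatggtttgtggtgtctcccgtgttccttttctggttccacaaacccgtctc
Slamf1: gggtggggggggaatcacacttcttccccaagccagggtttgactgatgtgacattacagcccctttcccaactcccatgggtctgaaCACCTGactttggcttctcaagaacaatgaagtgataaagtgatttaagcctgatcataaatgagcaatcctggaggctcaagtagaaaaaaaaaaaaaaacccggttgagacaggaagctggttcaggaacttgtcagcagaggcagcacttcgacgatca
Slamf9: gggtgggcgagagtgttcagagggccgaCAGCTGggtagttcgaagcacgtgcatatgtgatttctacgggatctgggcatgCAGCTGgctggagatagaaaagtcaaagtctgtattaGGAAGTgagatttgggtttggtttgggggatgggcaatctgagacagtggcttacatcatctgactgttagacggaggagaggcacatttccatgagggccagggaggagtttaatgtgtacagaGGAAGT
Cd48: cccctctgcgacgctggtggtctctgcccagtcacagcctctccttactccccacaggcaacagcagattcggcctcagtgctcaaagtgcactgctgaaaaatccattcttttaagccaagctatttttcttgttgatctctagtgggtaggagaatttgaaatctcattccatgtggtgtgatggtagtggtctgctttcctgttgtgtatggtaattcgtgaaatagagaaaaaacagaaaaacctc

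The 5 windows differed in these letters. *Slamf6*, *Cd84* and *Cd48* held no match, and the window of *Slamf7* held none either. *Slamf1* held 1 CACCTG at 162 bases before the start, and *Slamf9* held CAGCTG at 222 and 168 bases and GGAAGT at 131 and 6 bases before it. The Ebf1 palindrome was in 0 of the 8 windows and in 0.779% of 32851 promoter windows of the same length. CAGCTG was in 2 of 8 against 13.0% of all, CACCTG in 1 of 8 against 17.2%, GGAAGT in 3 of 8 against 19.7%, and TATAAA in 0 of 8 against 12.4%. A missing match says only that these letters were not in this window.

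Beyond the adaptors, 23 genes of SLAM signaling were examined, of which *Sh2d1b2* was at 0 in both libraries. Of the other 22, 9 were 2-fold or more lower at the pro-B stage, 1 was 2-fold or more higher and 12 lay within 2-fold, beside the 14.0% lower and 8.92% higher of all genes. Among the 10528 genes that reached 1 FPKM, 2013 were lower and 1284 higher. The 9 lower genes include *Cd244a* and *Cd2*, described above. The median log2 difference of all 22 genes was -0.43. *Fyn*, the kinase that SAP recruits, came to 73.3 FPKM over its 3 transcripts at the pre-pro-B stage and to 90.7 FPKM at the pro-B stage. Its main transcript NM_008054 was at 63.3 FPKM (interval 3.83 to 127) and 81.0 FPKM (interval 5.62 to 162).

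With the pseudocount of 1, the lowest ratios besides those of *Cd2* and *Cd244a* were those of *Dok2* and *Lck*. By the ratio of FPKM alone, *Fgr*, a Src kinase of myeloid cells, was lowest of the signaling genes, 221-fold lower at the pro-B stage (6.90 and 0.0312 FPKM). A ratio on so low a pro-B value rests on few reads, and with the pseudocount of 1 the log2 difference of *Fgr* was -2.94. *Dok2*, an adaptor that restrains Ras signaling, was at 15.8 FPKM at the pre-pro-B stage and 0.0998 FPKM at the pro-B stage, and *Lck*, a Src kinase best known from T cells, was at 38.0 and 3.0 FPKM. The phosphatase gene *Ptpn6* (SHP-1) was at 88.3 and 15.6 FPKM, whereas the lipid phosphatase gene *Inpp5d* (SHIP1) was at 45.3 and 82.8 FPKM. The kinase gene *Prkcq* (protein kinase C theta) was the 1 that was higher, at 0.148 and 6.62 FPKM. Those within 2-fold included *Csk*, an inhibitor of Src kinases, at 43.8 and 44.0 FPKM, the adaptor gene *Nck1* at 33.8 and 43.4 FPKM, and the autophagy gene *Becn1* at 56.6 and 63.1 FPKM.

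**Figure D4:**
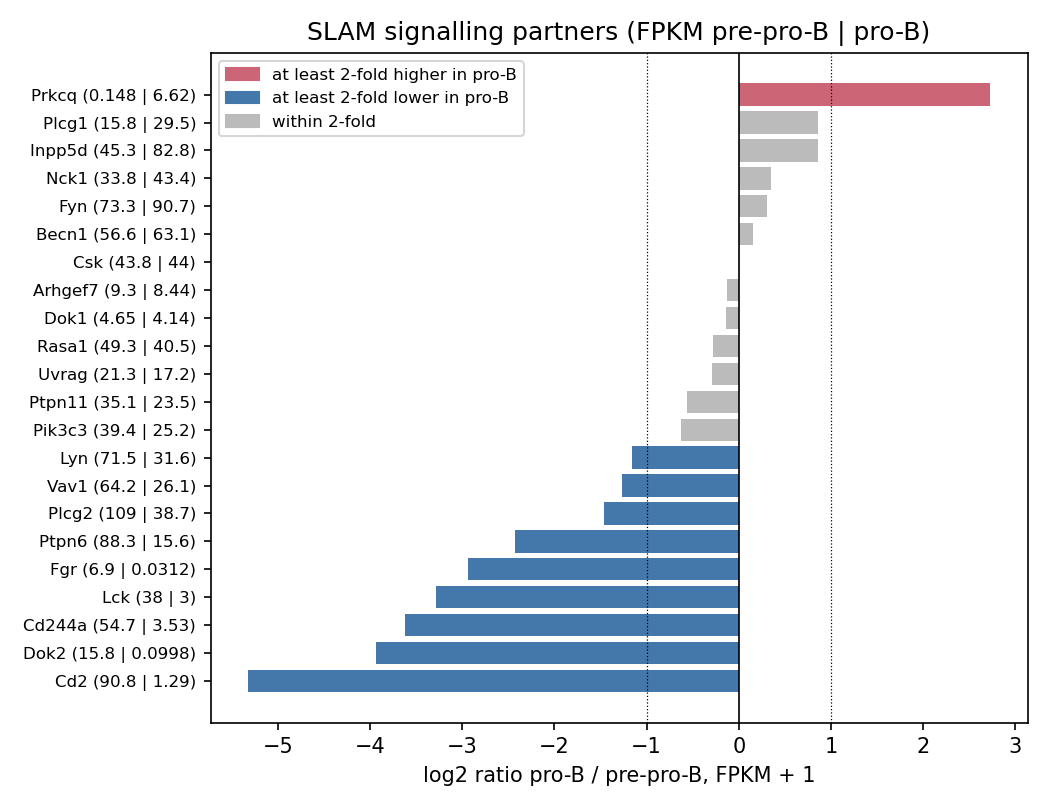
Log2 ratio of the pro-B level over the pre-pro-B level, as FPKM plus 1, for the 22 SLAM signaling genes above 0, with the FPKM of both libraries in parentheses and 2-fold as dotted lines. *Prkcq* is the 1 gene past 2-fold upward, and 9 genes from *Lyn* to *Cd2* are past it downward.

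The genes nearest to *Slamf6* by the distance between log2(FPKM + 1) values over the 2 libraries were *Trib2* (distance 0.25), *Pax5* (0.54), *Vpreb1* (0.57), *Slamf7* (0.66) and *Lef1* (0.70). *Trib2* was at 0.788 and 306 FPKM, and *Lef1* was at 1.36 and 218 FPKM. *Pax5*, a factor of B lineage commitment, was at 1.13 and 239 FPKM, and *Vpreb1*, a part of the surrogate light chain, was at 0.359 and 335 FPKM. *Slamf7* was the single other SLAM gene among these 5. With 2 libraries this likeness means only a similar pair of levels.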

How the data were processed

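RNA-seq libraries, 1 per cell type, were compared through the FPKM that the authors deposited for each RefSeq transcript. The authors trimmed the reads by quality, aligned them to mm9 with TopHat, with at most 20 alignments for each read, and obtained FPKM with 95% intervals with Cuffdiff 2.1.1, with multi-read and bias correction, a minimum alignment count of 10, dispersion estimated across both libraries, and no scaling between them. Reads shared between transcripts were divided by that model. A second deposited table holds the authors' fold changes, p-values and q-values and was not used. Depth was taken as about 90 M reads per library, and fragments per transcript were approximated from it. The mapped reads that the paper's supplement lists were not used, so these fragment numbers are rough. Of 26580 accessions, 26173 were named through a RefSeq table of GRCm38.p6, used for names and upstream sequence alone. Coordinates are those of the deposited table, with 1 added to the start. FPKM were summed per gene, and log2 ratios used a pseudocount of 1 and a threshold of 2-fold. No statistical test was possible with 1 library per group. Alternatives were other pseudocounts, a mean FPKM of at least 1, TPM and median-ratio scaling, and the top transcript of a gene in place of the sum. Genes named outside the family were the targeted genes, *Cd244a*, *Sh2d1b2*, *Cd2*, *Fyn*, and the highest and lowest ratios among the signaling genes. Leading and defining markers, neighbors within 300 kb and the 5 genes nearest to *Slamf6* were also named. *Fgr*, *Ptpn6*, *Inpp5d*, *Csk*, *Nck1*, *Becn1* and the marker *Lat* were chosen after their values were seen. The genes and lists were chosen with earlier results of these data known. The scripts were tested on simulated data, with Python 3.11.15, numpy 2.4.6, pandas 2.3.3 and matplotlib 3.10.9.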

Additional observations from a re-analysis of the deposited data

How the results depend on the processing

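No paired analysis was possible because each cell type had 1 library. The counts of SLAM genes at least 2-fold higher (6) and lower (2), and of transcripts with separate intervals (3), stayed within 1.5 times under every alternative run. The largest departure was 5 higher genes with a pseudocount of 5, where *Slamf9* came under 2-fold. The median log2 difference of the 8 genes, 2.20, was 3.13 with a pseudocount of 0.1, 1.10 with a pseudocount of 5 and 2.72 on the TPM scale, where a pseudocount of 1 weighs less, and the direction did not change. *Slamf1* ranged from 1.10 to 5.62 and *Sh2d1b1* from -5.02 to -1.45 over the alternatives, the widest ranges of the family, against 5.87 to 8.27 for *Slamf6* and -3.13 to -2.36 for *Cd48*. With the most abundant transcript of each gene, 2 signaling genes rather than 1 were higher, the added gene being *Inpp5d* with a log2 difference of 1.21. Without a pseudocount, rescaling to TPM would move log2 ratios by -0.09 and the median ratio by 0.09, and with the pseudocount of 1 the move differed from gene to gene. With 1 library per group, no alternative could leave out a replicate.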
